A study of Mus musculus with 9 samples.

Results

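The Fos and Jun families encode the subunits of the transcription factor AP-1, and their transcripts were followed here in the cortex of newborn mice with and without the zinc finger gene *Fezf2*. Members were taken by gene symbol. The rule named 7 genes: *Fosl2*, *Fosl1*, *Fos* and *Fosb* of the Fos family, and *Jun*, *Junb* and *Jund* of the Jun family. Of these, 6 were found among the 24624 genes of the expression table, and *Fosl1* was not analysed here. A mean of at least 10 normalized counts over the libraries was reached by 5 members, and by 16197 genes in all, and *Fosb* fell below it. The family was chosen by the measured values of *Fosl2*, high in Fezf2-/- cortex and low again when a repressor form of FEZF2 was present, so the genotype values of *Fosl2* are given as a description without a test. The paralogs were taken by family name.

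Whole-cortex RNA was sequenced from 9 mice at postnatal day 0 (P0), 1 mouse per library, from the hemispheres of both sides. The 3 genotypes were Fezf2+/+ (3 mice), Fezf2-/- (4 mice) and Fezf2-/-; Fezf2-EnR (2 mice), and the libraries carry the numbers bc201 to bc209. In the Fezf2- null allele, the *Fezf2* promoter drives a knocked-in human placental alkaline phosphatase. Fezf2-EnR is a BAC transgene in which the *Fezf2* locus drives the DNA-binding domain of FEZF2 joined to the repressor domain of engrailed. Both mutant genotypes therefore lack full-length *Fezf2*, and only the last carries the transgene. The animals came from 3 litters: m1 (2 Fezf2+/+, 2 Fezf2-/-), m2 (1 Fezf2+/+, 1 Fezf2-/-; Fezf2-EnR) and m3 (2 Fezf2-/-, 1 Fezf2-/-; Fezf2-EnR). RNA came from tissue with many cell types, so fewer cells of a type and less RNA per cell cannot be told apart.

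AP-1 is a dimer. Jun proteins pair with each other or with Fos proteins through leucine zippers, whereas Fos proteins bind DNA only in pairs with a partner such as Jun. *Fos*, *Fosb* and *Junb* are immediate early genes, transcribed within minutes of neuronal activity or growth factor signals, while *Jund* is expressed steadily in most cells. The product of *Fosl2*, FRA2, lacks the strong activation domain of FOS and is a slower, more lasting member of the family.

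AP-1 genes are in part controlled by bZIP factors of their own kind, so windows around the RefSeq starts of the members were searched for bZIP motifs. RefSeq windows (mouse genome build GRCm38.p6) ran from 250 bases before each start to 50 bases after it and were matched for 6 of 6 members by symbol. The sequences are shown for the 3 paralogs with a match in the stretch outside annotated exons. They run 5′ to 3′ on the gene's strand, and capitals mark the matches. The *Jun* sequence is chr4:95052223-95052472 (minus strand), the *Fos* sequence is chr12:85473640-85473889 (plus strand) and the *Junb* sequence is chr8:84978749-84978998 (minus strand).
Jun: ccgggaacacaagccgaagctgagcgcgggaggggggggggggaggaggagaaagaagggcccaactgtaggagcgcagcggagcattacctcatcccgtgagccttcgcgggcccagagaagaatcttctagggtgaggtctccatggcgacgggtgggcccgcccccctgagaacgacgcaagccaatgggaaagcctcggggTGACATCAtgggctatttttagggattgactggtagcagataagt
Fos: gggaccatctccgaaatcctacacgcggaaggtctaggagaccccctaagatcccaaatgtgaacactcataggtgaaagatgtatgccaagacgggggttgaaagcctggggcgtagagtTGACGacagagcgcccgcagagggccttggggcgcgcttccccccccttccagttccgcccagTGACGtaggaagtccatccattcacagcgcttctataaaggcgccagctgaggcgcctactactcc
Junb: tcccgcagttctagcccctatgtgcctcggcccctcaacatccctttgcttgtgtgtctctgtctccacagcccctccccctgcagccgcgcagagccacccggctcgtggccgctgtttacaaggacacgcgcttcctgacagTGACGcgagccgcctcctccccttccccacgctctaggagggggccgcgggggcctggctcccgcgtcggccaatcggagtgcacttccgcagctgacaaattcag
Both strands were searched for TGACTCA (the AP-1 element), TGACGTCA (the cAMP response element, CRE), TGACG (the core of the CRE, contained in the full element), TGACATCA (the Jun/ATF element) and the CArG box bound by serum response factor. *Fos* held TGACG at -129 and at -66, *Junb* at -106 and *Fosb* at -60, all counted in bases from the annotated start. TGACG was present in 20.8% of the 32851 promoter windows of the genome. *Jun* held TGACATCA at -45, a motif present in 3.62% of windows. None of the 6 windows matched TGACTCA (5.2% of windows), TGACGTCA (1.79%) or the CArG box (1.63%), and *Fosl2* and *Jund* matched none of the motifs. These matches describe letters in a window and not occupied sites. The windows follow RefSeq starts: that of *Jund* ends upstream of the GENCODE start used below, and that of *Fosl2* begins inside the GENCODE gene, so neither covers the promoter at that start. The *Fosl2* window lay wholly in annotated exon and is not printed.

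The values below are normalized counts, reads per gene scaled by the authors so that libraries can be compared. The libraries summed to 20097781 to 21058156. In 7 of 9 the low values, on which this was checked, were whole multiples of 1 read, which gave 18716575 to 25127623 reads. The remaining 2 libraries, bc204 (Fezf2-/-) and bc208 (Fezf2-/-; Fezf2-EnR), did not resolve into whole reads, and results are given without them where they matter. The genotype labels were checked on *Fezf2*, at 979 to 1232 in Fezf2+/+, 193 to 242 in Fezf2-/- and 907 to 1001 in Fezf2-/-; Fezf2-EnR libraries, the last including any transcripts of the transgene. The X-inactivation transcript *Xist* was at 7895 to 12203 in both Fezf2-/-; Fezf2-EnR libraries and in bc201 (Fezf2+/+), and at most 58.9 in the other 6, which carried Y-linked transcripts such as *Ddx3y* (1169 to 1600). The Fezf2-/- libraries were thus all of the Y-linked type and the Fezf2-/-; Fezf2-EnR libraries all of the *Xist* type. Sex and genotype cannot be told apart between them directly.

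*Fosl2* (ENSMUSG00000029135.10, chromosome 5, 32135801 to 32157842, plus strand, build GRCm38) is the member whose values chose the family. In Fezf2+/+ cortex it measured 1489, 1418 and 1419 normalized counts. In Fezf2-/- cortex it measured 3735, 3508, 3821 and 4585. In Fezf2-/-; Fezf2-EnR cortex it measured 1581 and 1630. Each Fezf2-/- library lay above each of the other 5, and the highest value outside Fezf2-/- was less than the lowest value within it.

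Averaged by genotype, *Fosl2* stood at 1442 ± 40.6 in Fezf2+/+ cortex (SD, n = 3). It stood at 3912 ± 468 in the Fezf2-/- animals (SD, n = 4) and at 1606 ± 34.8 with the transgene (SD, n = 2). The Fezf2-/- mean was 2.71 times that of Fezf2+/+, a log2 fold change of 1.43 (SE 0.08; 95% interval 1.25 to 1.62). With the transgene the mean was 0.410 times that of Fezf2-/-, a log2 fold change of -1.28 (SE 0.09; 95% interval -1.49 to -1.07). These comparisons share the Fezf2-/- libraries. Transgenic and Fezf2+/+ cortex differed by a log2 fold change of 0.16 (95% interval -0.06 to 0.37). The intervals of *Fosl2* describe the spread of the values that chose it and are not read as tests.

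Placed among the 16197 genes, *Fosl2* was exceeded in its log2 fold change between Fezf2-/- and Fezf2+/+ by 51 genes. A more negative log2 fold change between Fezf2-/-; Fezf2-EnR and Fezf2-/- was found in 78 genes. In contrast, 4429 genes had a larger log2 fold change between Fezf2-/-; Fezf2-EnR and Fezf2+/+. The medians of all genes lay between -0.0048 and 0.0030 in these comparisons. These positions describe the values that chose *Fosl2* and are not evidence for it.

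**Figure D1:**
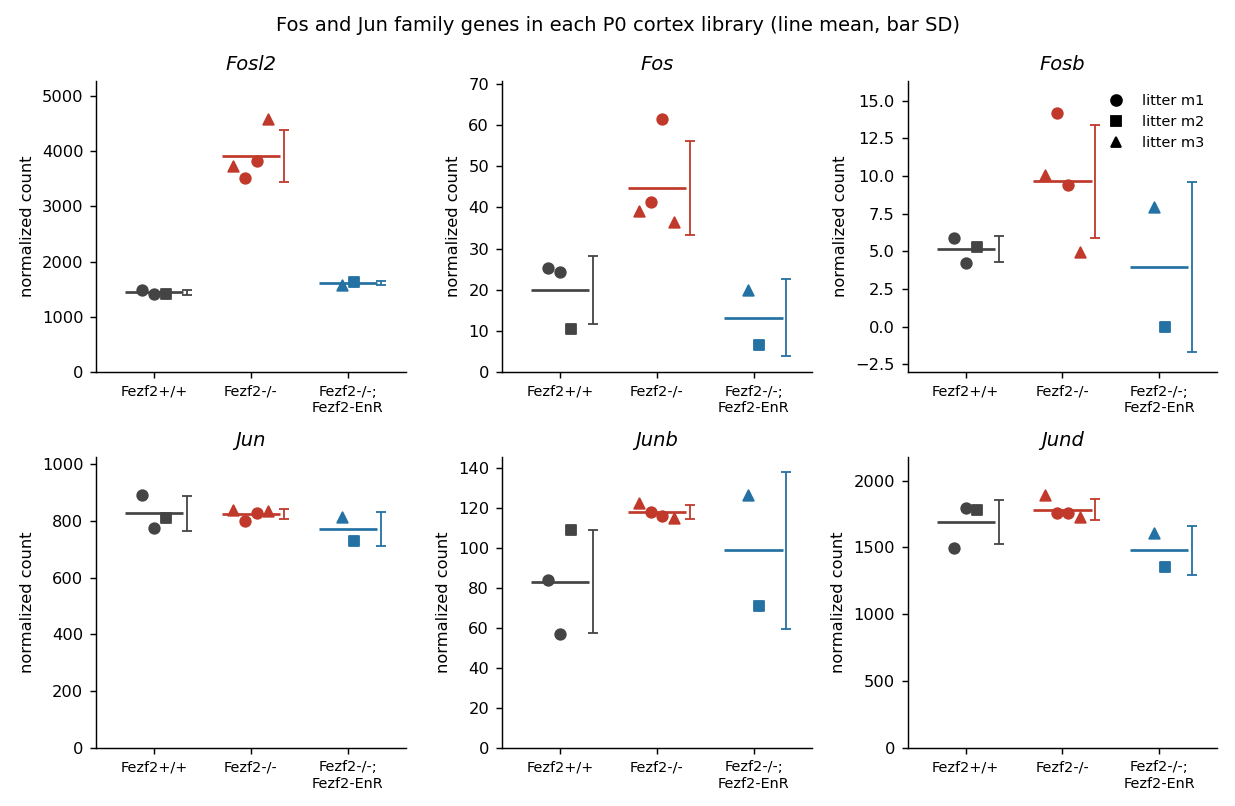
Normalized counts of the 6 members in each P0 cortex library by genotype. Each point is 1 mouse (marker shape, litter), the horizontal line is the group mean and the bar beside it is the SD. The 4 Fezf2-/- libraries sit at 3508 to 4585 for *Fosl2*, above the 5 others at 1418 to 1630, while *Jun* stays within 728 to 892 in all 9.

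Litter and sex were not used in choosing *Fosl2*. With genotype in the model, litter m2 differed from m1 by a log2 value of 0.05 (SE 0.10) and m3 from m1 by 0.12 (SE 0.09), and the litter term did not pass the test (limma F-test, Benjamini-Hochberg adjusted p = 0.659). In litter m1 alone, the log2 fold change of *Fosl2* between Fezf2-/- and Fezf2+/+ was 1.33. Without bc201, the Fezf2+/+ library with *Xist*, all 6 libraries of that comparison were of the Y-linked type and the log2 fold change was 1.46. With *Xist* level as a covariate, a term that rests on 1 Fezf2+/+ library, the log2 fold change between Fezf2-/-; Fezf2-EnR and Fezf2-/- was -1.35.

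*Fos* (ENSMUSG00000021250.13, chromosome 12, 85473890 to 85477273, plus strand), the founding immediate early gene of the family, was far scarcer. It measured 25.4, 24.2 and 10.5 normalized counts in Fezf2+/+ cortex. In Fezf2-/- cortex it measured 39.2, 41.4, 61.5 and 36.6. In Fezf2-/-; Fezf2-EnR cortex it measured 19.9 and 6.56. The Fezf2-/- libraries again lay above the other 5, although each value rested on few reads, 6 to 59 in the 7 libraries with recovered reads.

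The group means of *Fos* were 20.03 ± 8.24 (n = 3), 44.7 ± 11.4 (n = 4) and 13.2 ± 9.44 (n = 2, all SD) in the same order. The log2 fold change between Fezf2-/- and Fezf2+/+ was 1.18 (SE 0.39; 95% interval 0.32 to 2.05), and it did not pass the test over all genes (limma, adjusted p = 0.288). With the transgene, against Fezf2-/-, it was -1.83 (SE 0.44; 95% interval -2.81 to -0.85), also short of the threshold (limma, adjusted p = 0.104). This call turned on library bc208: without it the log2 fold change was -2.56 (limma, adjusted p = 0.0168), with 1 Fezf2-/-; Fezf2-EnR library assumed to vary like the other groups. Of the 4 paralogs tested, *Fos* was the 1 with every Fezf2-/- library above both other genotypes, the pattern for which *Fosl2* was chosen, and 2.22% of all genes tested showed it.

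Values of *Fos* also differed by litter, although the litter term did not pass the test. In litter m2 *Fos* was at 10.5 in the Fezf2+/+ and 6.56 in the Fezf2-/-; Fezf2-EnR mouse, the lowest values of their genotypes. The log2 difference of m2 from m1 was -1.40 (SE 0.28), and the litter term was just short of the threshold (limma F-test, adjusted p = 0.0556). Within litter m1, Fezf2-/- mice had 41.4 and 61.5 against 25.4 and 24.2 in Fezf2+/+ mice. Within litter m3, Fezf2-/- mice had 39.2 and 36.6 against 19.9 in the Fezf2-/-; Fezf2-EnR mouse. The direction was thus the same inside the litters that hold both genotypes. Of the 5 members tested, 0 passed the adjusted litter test and 1 had an unadjusted p under 0.05, beside 3.01% and 22.1% of all genes.

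*Fosb* (ENSMUSG00000003545.3, chromosome 7, 19302696 to 19310051, minus strand), an activity-induced gene known for lasting splice products in neurons, was at the edge of detection. It measured 5.91, 4.21 and 5.27 in Fezf2+/+, 10.04, 14.2, 9.38 and 4.98 in Fezf2-/-, and 7.96 and 0 in Fezf2-/-; Fezf2-EnR libraries. The value of 0 in bc209 allows up to 3 reads, or 3.28 normalized counts, from counting error alone. The groups overlapped. In a fit without the filter on low values, the log2 fold change between Fezf2-/- and Fezf2+/+ was 0.73 (SE 0.61; 95% interval -0.59 to 2.05; limma, adjusted p = 0.791), so no difference was detectable at this depth. With the transgene, against Fezf2-/-, it was -1.75 (95% interval -3.25 to -0.26; limma, adjusted p = 0.299), a value that depends on the pseudocount because of the 0.

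Among the Jun genes, *Jun* (ENSMUSG00000052684.4, chromosome 4, 95049034 to 95052222, minus strand), the main dimer partner of Fos proteins, hardly varied. It measured 892, 774 and 812 in Fezf2+/+, 839, 800, 827 and 833 in Fezf2-/-, and 814 and 728 in Fezf2-/-; Fezf2-EnR libraries. The Fezf2-/- values lay inside the range of Fezf2+/+. The log2 fold change between these genotypes was -0.00024 (SE 0.07; 95% interval -0.16 to 0.16; limma, adjusted p = 0.999). The log2 fold change of *Jun* with the transgene, against Fezf2-/-, was -0.10 (95% interval -0.28 to 0.08; limma, adjusted p = 0.557). Exons of *Jun* overlap the antisense gene *Junos*, and since the use of strand in counting is not given in the sources used here, their reads may be mixed.

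*Junb* (ENSMUSG00000052837.6, chromosome 8, 84974484 to 84978718, minus strand), an immediate early gene whose product can restrain JUN, was low and uneven among replicates. It measured 83.6, 56.8 and 109 in Fezf2+/+, 123, 118, 116 and 115 in Fezf2-/-, and 126 and 71.0 in Fezf2-/-; Fezf2-EnR libraries. The Fezf2-/- values lay close together and above each Fezf2+/+ value, but within the spread of the transgenic pair. The log2 fold change was 0.55 between Fezf2-/- and Fezf2+/+ (SE 0.23; 95% interval 0.04 to 1.06; limma, adjusted p = 0.422) and -0.31 between Fezf2-/-; Fezf2-EnR and Fezf2-/- (95% interval -0.89 to 0.27; limma, adjusted p = 0.576). Without bc209 the last value turned to 0.10. Exons of *Junb* overlap those of *Prdx2*, so its values are uncertain where reads could be shared.

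*Jund* (ENSMUSG00000071076.6, chromosome 8, 70698949 to 70700616, plus strand), the steadily expressed member, was abundant. It measured 1498, 1792 and 1776 in Fezf2+/+, 1894, 1756, 1756 and 1723 in Fezf2-/-, and 1606 and 1349 in Fezf2-/-; Fezf2-EnR libraries. Fezf2-/- and Fezf2+/+ overlapped (log2 fold change 0.08; 95% interval -0.10 to 0.27; limma, adjusted p = 0.775). Both transgenic libraries lay under the 4 Fezf2-/- libraries, with a log2 fold change of -0.27 (SE 0.09; 95% interval -0.48 to -0.07) that did not pass the test (limma, adjusted p = 0.1999). Exons of *Jund* overlap the predicted gene *Gm11175*.

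Counted together, 0 of the 4 paralogs tested passed an adjusted p of 0.05 (limma) between Fezf2-/- and Fezf2+/+, where 0.858% of all genes passed. An unadjusted p under 0.05 was reached by 2 of them, *Fos* and *Junb*, and by 10.8% of all genes. In Fezf2-/-; Fezf2-EnR against Fezf2-/- cortex, 0 of 4 passed (0.766% of all genes), with 2 at an unadjusted p under 0.05, *Fos* and *Jund* (16.9% of all genes). edgeR on the recovered reads called 0 of 4 between Fezf2-/- and Fezf2+/+. Against Fezf2-/-, it had bc209 as the lone transgenic library. Its call of *Fos* there is given at the end, with its far larger count over all genes, and is not read against the limma share. Library bc209 came from litter m2, which held no Fezf2-/- mouse and in which *Fos* was low. The part of litter in the edgeR call was not tested. With litter as a block over the 9 libraries, the log2 fold change of *Fos* in Fezf2-/-; Fezf2-EnR against Fezf2-/- was -1.13 (limma, adjusted p = 0.145). In Fezf2-/-; Fezf2-EnR against Fezf2+/+ cortex, 0 of 4 passed by limma or edgeR, and 0 had an unadjusted p under 0.05, beside 0.117% and 19.3% of all genes.

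Among the 4 paralogs tested, each Fezf2-/- library was above each Fezf2+/+ library for 2, *Fos* and *Junb*, as for 6.53% of all genes. Each transgenic library was below each Fezf2-/- library for 2 of the 4, *Fos* and *Jund*, as for 12.6% of all genes. *Fosl2* is left out of these counts because it was chosen for this pattern. Against Fezf2+/+, the transgenic libraries gave log2 fold changes of -0.65 for *Fos* (limma, adjusted p = 0.475), -0.10 for *Jun* (0.553), 0.24 for *Junb* (0.667) and -0.19 for *Jund* (0.313), the adjusted p in parentheses. Intervals for all 4 span 0, and the widest, that of *Fos*, runs from -1.68 to 0.39.

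**Figure D2:**
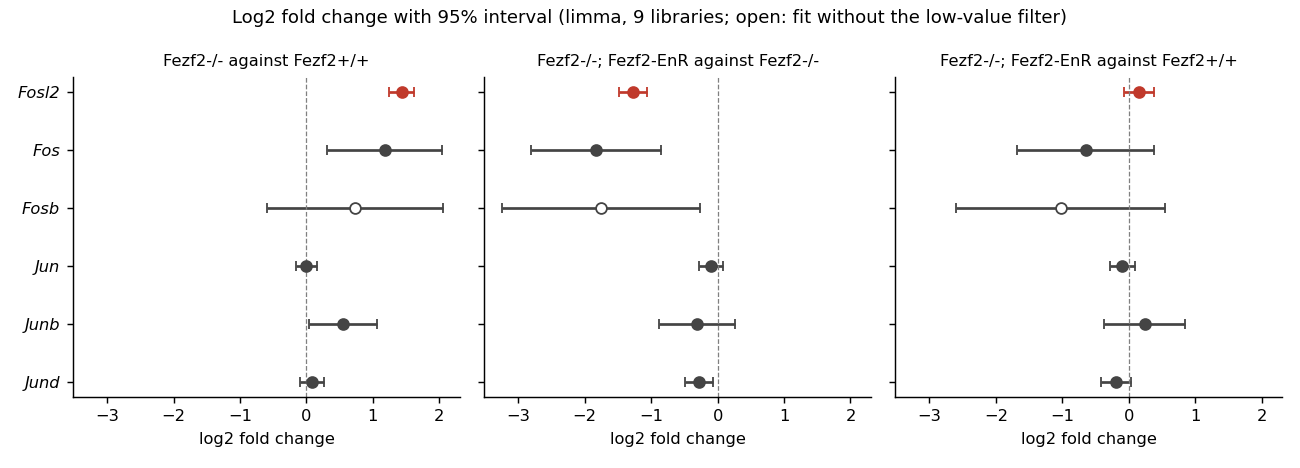
Log2 fold change (x axis) of each member (y axis) in the 3 comparisons between genotypes, with 95% intervals from limma on 9 libraries. The open marker of *Fosb* comes from the fit without the low-value filter, and the interval of *Fosl2* (red, no test) spans 1.25 to 1.62 in Fezf2-/- against Fezf2+/+, while that of *Jun* spans -0.16 to 0.16.

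Levels of different genes were compared per kilobase of annotated exon (GENCODE M21). In Fezf2+/+ cortex the order was *Jund* (1012 ± 99.1 normalized counts per kb, SD, n = 3), *Jun* (259 ± 18.9), *Fosl2* (149 ± 4.19), *Junb* (36.1 ± 11.2), *Fos* (8.52 ± 3.50) and *Fosb* (0.822 ± 0.138). *Fosl2* was thus by far the main Fos family transcript already with intact *Fezf2*. In Fezf2-/- cortex *Fosl2* (404 ± 48.3 per kb, SD, n = 4) stood above *Jun* (259 ± 5.40) and below *Jund* (1069 ± 45.6). In Fezf2-/-; Fezf2-EnR cortex it was at 166 ± 3.59 per kb (SD, n = 2), beside 242 ± 19.2 for *Jun*. Per kilobase of the longest coding transcript, which is shorter for *Fosl2* (6537 against 9680 bases), the Fezf2-/-; Fezf2-EnR level was 246 ± 5.32 and could not be separated from that of *Jun*. The order of *Fosl2* and *Jun* in the other genotypes held on that scale.

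Summed per kilobase over the 6 genes, *Fosl2* made up 10.2% ± 0.830 of AP-1 transcripts in Fezf2+/+ (n = 3), 22.4% ± 2.36 in Fezf2-/- (n = 4) and 12.4% ± 1.62 in Fezf2-/-; Fezf2-EnR cortex (n = 2, all SD). The share of *Jund* was 69.0%, 59.3% and 65.9%, and that of *Jun* 17.7%, 14.3% and 18.0%. The ratio of Fos family to Jun family transcripts was 0.111 to 0.136 in Fezf2+/+, 0.278 to 0.364 in Fezf2-/- and 0.136 to 0.160 in Fezf2-/-; Fezf2-EnR libraries. Since *Fosl2* supplies nearly all of the Fos family sum, this ratio follows the values that chose it and is a description. The Jun family sum was 1307 ± 81.7, 1378 ± 49.5 and 1171 ± 145 per kb in the same order. These sums count transcripts and not protein.

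**Figure D3:**
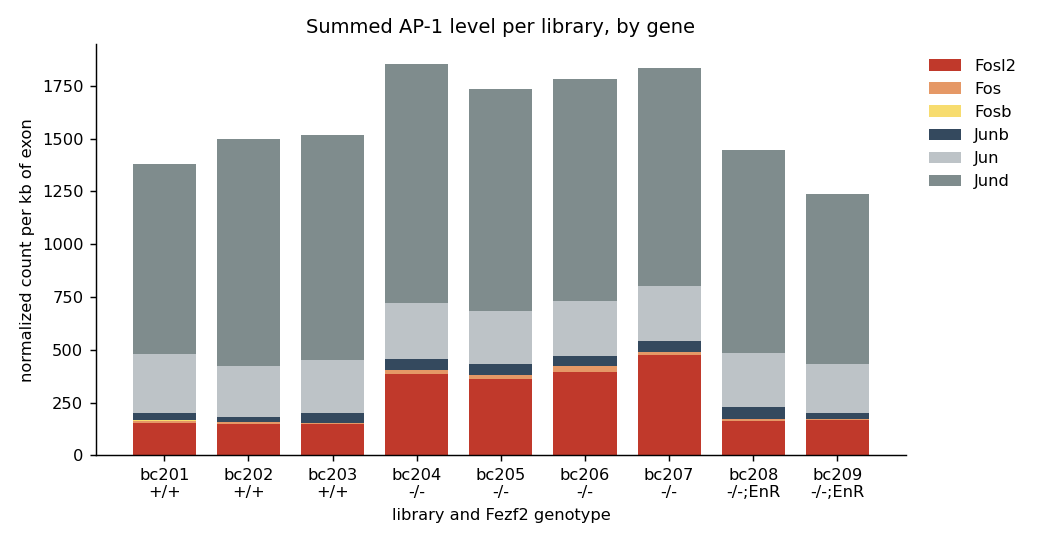
Normalized counts per kilobase of exon (y axis), stacked by member, in each of the 9 libraries (x axis, with genotype). *Jund* is the tallest block in every library, and the *Fosl2* block is 20.8% to 25.8% of the stack in the Fezf2-/- libraries and 9.65% to 13.6% in the others.

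Replicates of a genotype differed least for *Jun* (pooled SD of 0.08 on the log2 scale), *Jund* (0.12) and *Fosl2* (0.12), and most for the scarce *Junb* (0.36), *Fos* (0.62) and *Fosb* (1.002). Across the 9 libraries the 10 pairs among the 5 paralogs were tested for correlation of log2 values, and no pair passed after adjustment. The pair with the smallest p was *Fos* and *Fosb* (Pearson r = 0.792, exact permutation p = 0.00851, adjusted p = 0.0851). Its Spearman rho was 0.733 (exact permutation p = 0.0311, adjusted p = 0.156), and its r fell to 0.506 without the 2 libraries farthest from the median of *Fos*. For *Fosl2* and *Fos*, r was 0.747 over the 9 libraries and -0.12 once the genotype means were removed, given as a description with n = 9. With few libraries per genotype and few reads of *Fos*, the last value cannot show whether these genes varied together within genotypes.

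The genes around AP-1 were read from lists of known partners, upstream signals and targets. Between Fezf2-/- and Fezf2+/+, 10.8% of all genes had an unadjusted p under 0.05, with 6.61% of all genes on the higher side. These shares stand beside the unadjusted list counts of that comparison. All shares of genes beside list counts are those of limma and do not serve for edgeR or DESeq2 calls. DESeq2 called more genes than limma in that comparison, as given at the end. Of 13 bZIP partners and relatives tested (ATF, BATF, MAF, NFE2 and BACH proteins), 0 passed the test in any comparison (limma), and their median log2 fold change between Fezf2-/- and Fezf2+/+ was 0.07, beside 0.0002 over all genes. At an unadjusted p under 0.05, 1 was higher and 1 lower in that comparison, and on the 7 libraries with recovered reads edgeR and DESeq2 each called 1, *Bach2*, higher in Fezf2-/- cortex. Of 29 genes of the MAP kinase pathway that activates AP-1, 0 passed between Fezf2-/- and Fezf2+/+ (median 0.05) and 1 was lower between Fezf2-/-; Fezf2-EnR and Fezf2-/-, where 0.432% of all genes were lower. At an unadjusted p under 0.05, 3 were higher between Fezf2-/- and Fezf2+/+, and edgeR and DESeq2 called 0 there. The gene lower with the transgene was *Dusp6*, a phosphatase that switches off ERK and is itself induced by ERK signalling. It measured 793, 744 and 663 in Fezf2+/+, 782, 816, 1014 and 719 in Fezf2-/-, and 529 and 511 in Fezf2-/-; Fezf2-EnR libraries. *Dusp6* fell by 0.67 on the log2 scale between the last groups (SE 0.13; limma, adjusted p = 0.0426), and both transgenic values lay below all 7 others. The adjusted p was above the threshold in 11 of 21 alternatives, up to 0.675 with the *Xist* covariate.

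Among 17 factors upstream of *Fos* and *Jun* (SRF, its cofactors, ELK, CREB and MEF2 proteins), 0 passed in any comparison (limma). Their median log2 fold change between Fezf2-/- and Fezf2+/+ was 0.10. At an unadjusted p under 0.05, 4 were higher and 1 lower there, beside 10.8% of all genes in either direction and 6.61% higher. Among 7 genes for the turnover of FOS and JUN, 0 passed (limma), with a median of -0.07 and 0 at an unadjusted p under 0.05. Of 14 reported AP-1 target genes tested, 0 passed in any comparison (limma), and their median was 0.02, with 7 positive and 7 not. At an unadjusted p under 0.05, the targets included 2 higher and 2 lower in Fezf2-/- than in Fezf2+/+ cortex, beside the same shares of all genes. In that comparison edgeR and DESeq2 called 0 genes of each of these lists. In the comparisons with the transgene they rest on bc209 alone, and their calls in these lists are not counted here.

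A few immediate early genes outside AP-1 were higher in Fezf2-/- cortex. Of 25 tested, 2 rose against Fezf2+/+ cortex and 0 fell (limma, adjusted p under 0.05), beside 0.512% and 0.346% of all genes. At an unadjusted p under 0.05, 6 were higher, beside 6.61% of all genes, and 0 were lower. edgeR called the same 2 genes, and DESeq2 called 3, while the shares given here are those of limma. The median of the list was 0.15 on the log2 scale. Between Fezf2-/-; Fezf2-EnR and Fezf2-/-, 0 of the 25 passed (limma) and the median was -0.02. At an unadjusted p under 0.05, 3 were higher and 7 lower there, beside 16.9% of all genes in either direction. The genes called against Fezf2+/+ were *Nr4a3* and *Nr4a2*, orphan nuclear receptors induced by neuronal activity. *Nr4a2* also marks subplate neurons of the cortex.

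*Nr4a2* measured 2179, 2393 and 2156 in Fezf2+/+, 3357, 3462, 3575 and 4796 in Fezf2-/-, and 2653 and 2016 in Fezf2-/-; Fezf2-EnR libraries. Its log2 fold change between Fezf2-/- and Fezf2+/+ was 0.75 (SE 0.13, limma, adjusted p = 0.0248). All 4 Fezf2-/- libraries stood above the other 5, as for *Fosl2* and for 2.22% of all genes. The call was lost in 6 of 22 alternatives, with an adjusted p of up to 0.119. Among them were litter as a block (0.0599) and each fit without 1 Fezf2+/+ library. The transgenic values of *Nr4a2* were -0.70 from Fezf2-/- (SE 0.15, limma, adjusted p = 0.0649), short of the threshold. Over 21 alternatives this log2 fold change kept its direction. It ran from -0.98 with edgeR, where bc209 was the lone transgenic library, to -0.50 without bc209, so its size depended on the transgenic library used. *Nr4a3* measured 1199, 880 and 1106 in Fezf2+/+, 1740, 2072, 1983 and 2272 in Fezf2-/-, and 1432 and 1851 in Fezf2-/-; Fezf2-EnR libraries. Its log2 fold change was 0.93 (SE 0.13; limma, adjusted p = 0.00577) and past the threshold in 22 of 22 alternatives, and its transgenic values were -0.30 from Fezf2-/- (limma, adjusted p = 0.314), overlapping them. The 2 members of highest mean did not pass the test: *Homer1*, a synaptic scaffold, was at -0.08 (limma, adjusted p = 0.765) and the zinc finger gene *Klf6* at 0.15 (limma, adjusted p = 0.575) between Fezf2-/- and Fezf2+/+.

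The genes whose pattern was most like that of *Fosl2* were sought by Pearson correlation of log2 values over the 9 libraries, among 12962 genes with a mean of at least 50. The libraries share genotypes and litters, so these values are a description. The highest was *Figf* (r = 0.984), which encodes the growth factor VEGF-D and was named for its induction by FOS. It measured 101, 108 and 101 in Fezf2+/+, 404, 524, 509 and 502 in Fezf2-/-, and 99.6 and 113 in Fezf2-/-; Fezf2-EnR libraries. Next came *Ubash3b* (r = 0.980), *Btbd11* (0.980), *Eepd1* (0.977) and the adaptor gene *Shc4* (0.973), whose differences were smaller than that of *Figf*: *Shc4* was at 154 ± 2.45 in Fezf2+/+ (n = 3), 187 ± 7.52 in Fezf2-/- (n = 4) and 158 ± 7.29 in Fezf2-/-; Fezf2-EnR cortex (n = 2, all SD).

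The most opposite patterns were those of *Hs3st4* (r = -0.989), a heparan sulfate sulfotransferase, *Tcerg1l* (-0.988) and *Kif26a* (-0.980), an atypical kinesin. *Hs3st4* measured 2290, 2398 and 2233 in Fezf2+/+, 584, 615, 570 and 575 in Fezf2-/-, and 1824 and 2201 in Fezf2-/-; Fezf2-EnR libraries. These genes were low in just the libraries in which *Fosl2* was high. The median r of the 25 immediate early genes with *Fosl2* was 0.141, beside 0.004 over all genes tested, and the list was spread widely. Its values ran from -0.641 (*Ier5*) to 0.935 (*Nr4a2*). *Nr4a3* was at 0.823, *Egr2* at 0.822 and *Egr3* at 0.815, while *Zfp36* was at -0.579 and *Gadd45b* at -0.534.

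**Figure D4:**
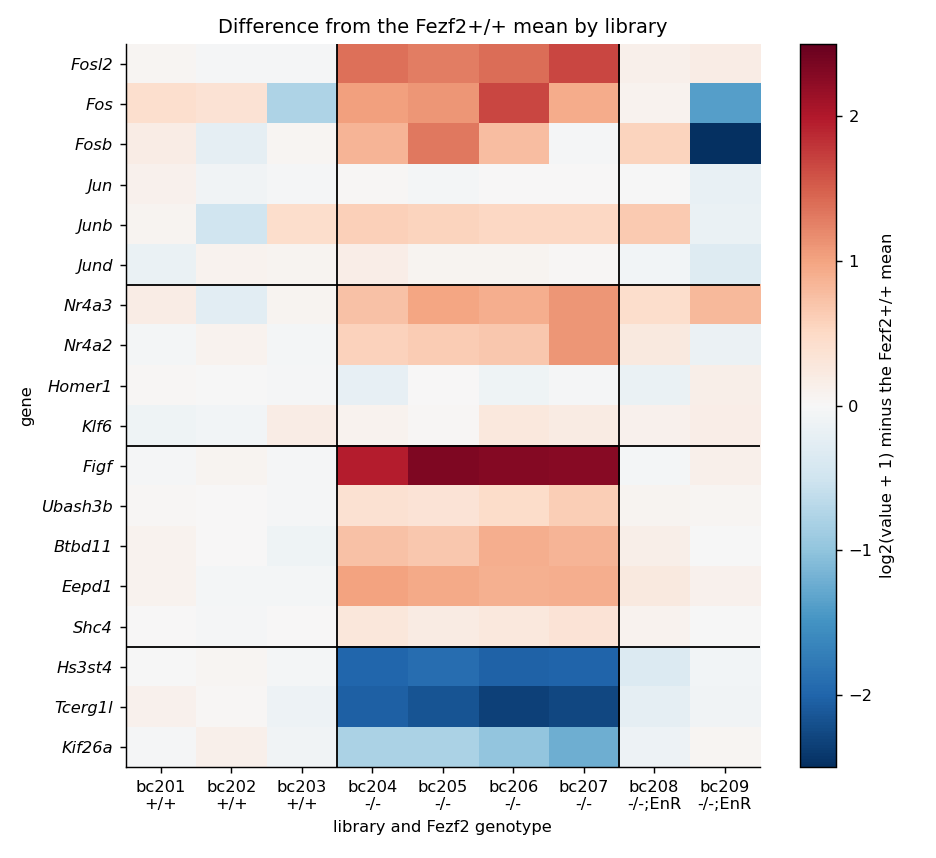
Log2(value + 1) minus the Fezf2+/+ mean (colour, in log2 units) for each library (columns) and gene (rows): the 6 members, 4 immediate early genes, the 5 genes most like *Fosl2* and the 3 most opposite. *Fosl2*, *Nr4a2* and *Figf* are red in the 4 Fezf2-/- libraries and near 0 in the others, *Hs3st4* is blue there, and the colour scale is clipped, so that *Fosb* at 0 in bc209 is darker than it can show.

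Markers of cell types that the tissue could hold were read beside these values. Of 10 markers of cortical glutamatergic neurons, 2 fell in Fezf2-/- cortex, beside 0.346% of all genes. They were *Bhlhe22* (log2 fold change -0.45, limma, adjusted p = 0.0432) and *Emx1* (-0.44, limma, adjusted p = 0.0296), both transcription factors of this lineage. The study used BHLHB5, the product of *Bhlhe22*, as a marker of subcerebral neurons, a subtype within this class. Leaving out any 1 Fezf2+/+ or Fezf2-/- library took either call away, with adjusted p of up to 0.214 for *Bhlhe22* and 0.190 for *Emx1*. At an unadjusted p under 0.05, 1 marker was higher and 3 were lower, beside 10.8% of all genes in either direction and 6.61% higher. These shares also stand beside the unadjusted counts of the other cell type markers in this comparison. edgeR called *Bhlhe22* alone, and DESeq2 called *Bhlhe22* and *Emx1* lower and *Slc17a7*, the vesicular glutamate transporter gene, higher. The summed level of the 10 markers was 64860 to 66235 in Fezf2+/+, 58128 to 68795 in Fezf2-/- and 61115 to 73900 in Fezf2-/-; Fezf2-EnR libraries, and none was at 0 throughout. With the transgene, against Fezf2-/-, the log2 fold change was 0.49 for *Bhlhe22* (limma, adjusted p = 0.0563) and 0.15 for *Emx1* (limma, adjusted p = 0.420). The first lay at the threshold: without the filter on low values its adjusted p was 0.0497 (limma). Its size ran from 0.30 without bc209 to 0.69 without bc208. Of 14 endothelial and mural markers, 0 passed in any comparison by limma, edgeR or DESeq2 (2 higher at an unadjusted p under 0.05 in Fezf2-/- against Fezf2+/+), with summed levels of 5218 to 6984, 6437 to 7359 and 5881 to 6086. The log2 fold changes of these 14 were positive for 10 between Fezf2-/- and Fezf2+/+ (median 0.08) and for 0 between Fezf2-/-; Fezf2-EnR and Fezf2-/- (median -0.16). Of 11 microglia and macrophage markers, 0 passed by any of these tools (3 higher at an unadjusted p under 0.05), with summed levels of 1640 to 1808, 1774 to 1928 and 1877 to 1941. Of these 11, 9 were positive in the first of these comparisons (median 0.21) and 6 in the next (median 0.04).

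Of 7 meningeal fibroblast markers tested, 1 fell in Fezf2-/- cortex, beside 0.346% of all genes. It was the matrix gene *Lum* (19.5 ± 2.83 in Fezf2+/+, 3.14 ± 1.52 in Fezf2-/-, log2 fold change -2.40, limma, adjusted p = 0.0176). With the transgene it was higher again (19.0 ± 8.33, log2 fold change 2.30, limma, adjusted p = 0.0426), where 0.333% of all genes were higher. The call between Fezf2-/- and Fezf2+/+ was lost in 5 of 21 alternatives (adjusted p up to 0.0979) and the last in 16 of 20 (up to 0.882). The sum of the list was 2294 to 3061, 2783 to 3225 and 2869 to 3003 in the 3 genotypes. Of 11 markers of striatal projection neurons, which lie under the dissected cortex, 0 passed (limma), with 2 higher and 1 lower at an unadjusted p under 0.05, while edgeR called 1 higher and 1 lower and DESeq2 1 lower. In all, 10 of 11 were on the higher side in Fezf2-/- than in Fezf2+/+ cortex, with a median log2 fold change of 0.61, and 4 of 11 with the transgene against Fezf2-/- (median -0.27). Their summed level overlapped between genotypes (6801 to 7902, 6218 to 9198 and 6344 to 7926). The part of these markers in the values of *Fosl2* and *Fos* was not tested.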

How the data were processed

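Polyadenylated RNA of whole P0 cortex was sequenced in 9 libraries. The deposited table holds signal values: read counts per gene that the authors divided by size factors, with 2 decimals (the submitters' notes name Bowtie, STAR, DESeq and build mm10). Whole reads were recovered in 7 libraries, 100% of low positive values, on which this was checked, being whole within 0.02. Members were matched by symbol, and exon lengths, positions and overlaps were taken from GENCODE M21. log2(value + 1) was fitted with limma 3.58.1 (R 4.3.3; trend) over 16197 genes with a mean of at least 10, with 1 coefficient per genotype over all 9 libraries, and p-values were Benjamini-Hochberg adjusted over these genes (threshold 0.05). edgeR 4.0.16 and DESeq2 1.42.0 on recovered reads were alternatives. Correlations used exact two-sided permutation (SciPy 1.17.1). Scripts were tested on simulated data. The study analysed counts with DESeq, whereas deposited values needed a log-scale test.

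Members and lists were chosen with earlier results of these data known. Genes named were the members, *Fezf2*, the 5 genes most and 3 least correlated with *Fosl2*, called list genes (at most 4 per list) and the 4 immediate early genes of highest mean. *Xist*, *Ddx3y*, *Bach2*, *Ier5*, *Egr2*, *Egr3*, *Zfp36* and *Gadd45b* were named after their values were seen. Litter, and *Xist* above or below a value of 1000, were covariates in alternatives. Each library was 1 mouse, so p-values measure spread among mice.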

Additional observations from a re-analysis of the deposited data

How the results depend on the processing

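The log2 fold change of *Fosl2*, a description of the values that chose it, kept its direction under every alternative run. It was 1.33 to 1.48 between Fezf2-/- and Fezf2+/+ (22 alternatives). It was -1.35 to -1.20 between Fezf2-/-; Fezf2-EnR and Fezf2-/-, and 0.09 to 0.18 between Fezf2-/-; Fezf2-EnR and Fezf2+/+ (21 each). *Fos* ranged from 0.80 to 1.39 between Fezf2-/- and Fezf2+/+ (adjusted p 0.141 to 0.488) and from -2.80 to -1.10 between Fezf2-/-; Fezf2-EnR and Fezf2-/- (adjusted p 0.0168 to 0.863). The count of paralogs called in the last comparison went from 0 to 1, *Fos*, with edgeR (adjusted p = 0.049), with limma on the 7 libraries with recovered reads, an alternative chosen after seeing the data (adjusted p = 0.0286), and from 0 to 1 among fits that leave out 1 library. With *Xist* level as a covariate, also chosen after seeing the data, it was 0. DESeq2 gave no adjusted p for *Fos* in either comparison with the transgene, nor for *Junb* between Fezf2-/-; Fezf2-EnR and Fezf2+/+.

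Small differences of the Jun genes and of *Fos* changed sign. With 1 library left out, *Jun* ran from -0.046 to 0.057 and *Jund* from -0.0020 to 0.13 between Fezf2-/- and Fezf2+/+ (0.057 and -0.0020 with the *Xist* covariate). *Junb* ran from -0.72 to 0.10 between Fezf2-/-; Fezf2-EnR and Fezf2-/-. Against Fezf2+/+, the transgenic libraries gave -0.17 to 0.65 for *Junb* and -1.38 to 0.085 for *Fos*, and for *Junb* -0.23 with edgeR and -0.17 with limma on 7 libraries. The correlation of *Jun* and *Jund* was -0.11 after genotype means were removed. The cause of these changes was not tested.

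Counts over all genes moved more. Between Fezf2-/- and Fezf2+/+, 139 genes were called, against 221 in a fit of those groups alone, 233 in litter m1 alone, 319 with DESeq2, 66 with the *Xist* covariate and 66 to 217 leaving out 1 library. Between Fezf2-/-; Fezf2-EnR and Fezf2-/-, 124 were called, against 67 in those groups alone, 661 with edgeR, 1103 with DESeq2, 809 with limma on 7 libraries, 11 with the *Xist* covariate and 21 to 1088 leaving out 1 library (21 without bc209, 1088 without bc208). Between Fezf2-/-; Fezf2-EnR and Fezf2+/+, 19 were called, against 10 at a minimum mean of 50, 12 in those groups alone, 32 with litter as a block, 205 with edgeR, 955 with DESeq2, 276 with limma on 7 libraries and 8 to 491 leaving out 1 library. No paired analysis by replicate number was possible because no number is shared between genotypes. Litter served as the block instead, and with it 0 paralogs were called in each comparison, as without it. *Fosb* and *Fos* are limited by depth, with at most 59 recovered reads of *Fos* in a library.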
